A study of Arabidopsis thaliana with 9 samples.

Results

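The genes described here are 36 genes of G2/M and mitosis, given as a list of gene IDs by function, which was drawn up with earlier results of these data known: A1-, A2-, B1- and B2-type cyclins, B-type cyclin-dependent kinases (CDKs), CDC20 proteins, Aurora kinases, kinesins, and genes of the phragmoplast and of the spindle checkpoint. They are 36 of the 32833 genes listed in the files, and all 36 were among the 20272 genes that passed the filter on low counts. RNA was sequenced from dissected roots of Arabidopsis thaliana seedlings, 4-5 days old, of 1 transgenic line in the Col-0 background. In this line, p35S::XVE>>pLexA::STZ, the 35S promoter drives the estradiol-responsive activator XVE, which switches on STZ through a LexA promoter, so any cell that makes XVE can make STZ. STZ is a C2H2 zinc finger transcription factor of stress responses. The 3 groups all carry this transgene: ethanol alone over 24 h (mock), and estradiol at 20 µM over either 6 h or 24 h, with 3 libraries apiece that are labelled as biological replicates. No group of the line without the transgene, or of estradiol without STZ, was analysed here, so effects of estradiol and of STZ cannot be told apart, and the mock group serves both time points.

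Plant cells that enter mitosis switch on a shared set of genes. B-type and some A-type cyclins bind CDKs and drive the cell into division, CDC20 proteins direct the anaphase-promoting complex to destroy the cyclins again, and Aurora kinases and microtubule proteins build the spindle. The phragmoplast, a plant-specific array of microtubules, then lays down the new cell wall. Many of these genes carry the mitosis-specific activator element in their promoters, with AACGG as its core, which is bound by three-repeat MYB (MYB3R) proteins. In a root, dividing cells lie mostly in the meristem at the tip. In RNA from dissected roots, fewer dividing cells and less of a transcript in each of them cannot be told apart.

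The libraries held 24375822 to 31299634 counted exon reads. STZ (AT1G27730) had 510 to 947 reads in the mock libraries, 27555 to 35537 at 6 h and 246924 to 337538 at 24 h, in the order of the labels. Levels below are CPM, counts relative to the library total and scaled by the TMM method, which compare 1 gene between libraries. A gene was called at an edgeR adjusted p (Benjamini-Hochberg over all 20272 genes) under 0.01 where it also changed 1.5-fold or more, and log2 changes are given with their SE. Root markers were present in every group. The sum of root meristem markers ranged over 119-125 CPM in the mock libraries, over 137-140 CPM after 6 h and over 175-210 CPM after 24 h. Most of the rise after 24 h lay in SCR, with group means of 51.7, 59.6 and 116 CPM in the same order. The median log2 change of the 9 tested markers at 24 h was 0.14, and 2 of them (SCR and WOX5) were called higher. The stem cell niche regulators PLT1 and PLT2 were at 8.78 and 5.42 CPM in mock and at 7.94 and 5.95 CPM at 24 h (not called), and RGF1 did not pass the filter. Photosynthesis genes, used as markers of shoot tissue, fell in sum from 181-189 CPM in mock to 42.8-47.5 CPM at 6 h and 40.8-47.3 CPM at 24 h (6 of 6 called lower at both times). The sum of mature xylem markers ranged over 492-519 CPM in the mock libraries, over 557-634 CPM after 6 h and over 612-725 CPM after 24 h, with 1 of 6 called higher at 6 h and 2 of 6 at 24 h. That of root cap markers ranged over 16.3-18.7, 20.8-25.8 and 24.5-34.9 CPM in the same order. Of these 3 genes only BRN2 was called higher at 6 h and only BRN1 at 24 h. BRN1 had means of 6.58, 9.75 and 20.0 CPM, and SMB of 6.49, 6.43 and 4.34 CPM (not called). The sum of root hair markers ranged over 412-548 CPM in the mock libraries, over 720-1092 CPM after 6 h (3 of 6 called higher) and over 391-547 CPM after 24 h (0 of 6 called by edgeR, and 0 at an unadjusted p under 0.05). The part of these differences in the values below was not tested.

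The G2/M and mitosis genes lay mostly below mock after 24 h of STZ induction, with a smaller shift at 6 h. At 24 h, 33 of 36 had a log2 change below 0 against mock, and the same 33 genes were below 0 under all 24 alternative settings or left-out libraries, except that a stricter filter tested only 31 of the 36. The median log2 change was −0.40, against −0.01 over all genes tested. The falls were modest: 8 of 36 (22.2%) were called lower and none higher, where 18% of all genes were called lower, 17.6% higher and 35.5% either way. With TMM scaling the genes were thus, by share of calls, close to the background, whereas 24 of 36 (66.7%) had all 3 libraries at 24 h below all 3 mock libraries, against 34.8% of all genes. Of the members 17 had an adjusted p under 0.01, and 9 of these changed by less than 1.5-fold. With the looser threshold of an adjusted p under 0.05 at any fold, 22 of 36 (61.1%) were lower and 0 higher, against 32.3% of all genes lower.

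**Figure D1:**
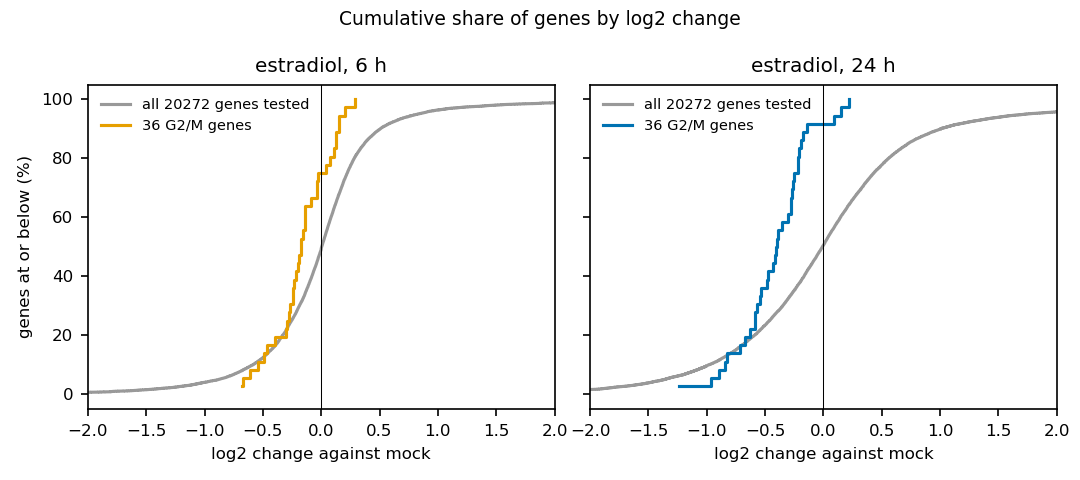
The cumulative share of genes (percent, y axis) is drawn against the fitted log2 change from mock (x axis) for estradiol at 6 h (left) and 24 h (right), with all 20272 tested genes in grey and the 36 G2/M genes in colour. At 24 h the coloured curve lies to the left of the grey one, with a median of −0.40 against −0.01.

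At 6 h the shift was smaller. The median log2 change was −0.17, against 0.00 over all genes, and 27 of 36 were below 0. Only 2 of 36 (5.56%) were called lower and none higher, against 7.71% of all genes lower, 5.43% higher and 13.1% either way, and 12 of 36 (33.3%) had groups that did not overlap on the lower side, against 28.3% of all genes. At the looser threshold 6 were lower (16.7%), against 19.8% of all genes. Between 6 h and 24 h the median change was −0.31, against −0.02 over all genes. In that comparison 1 of 36 was called lower (2.78%), where 10.5% of all genes were called lower, 14.1% higher and 24.6% either way. The 24 h libraries all lay below the 6 h libraries for 20 of 36 (55.6%), against 28.9% of all genes, and 18 (50%) were lower at the looser threshold, against 27.3%. With upper-quartile scaling the median of all genes moved to −0.12 in both comparisons with the 24 h libraries. At 24 h against mock 13 of 36 members (36.1%) were then called lower, against 22.1% of all genes, and between the times 4 of 36 (11.1%), against 14%. The share of calls that were higher then went from 57.3% to 44.6% for 24 h against 6 h.

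The study itself named 5 of the 36, CDKB2;1, CYCB1;4, CYCB2;3, CYCB2;4 and MAP65-4, as cell cycle genes with these libraries in view, so their direction here is not independent evidence. It also drew a larger list of suppressed cell cycle genes in part from these libraries. How many of the other 31 are on that list is not given here. All 5 were called lower at 24 h. Of the other 31, 3 were called lower (9.68%), a smaller share than the 18% of all genes called lower. Of these 31, 28 had a log2 change below 0, with a median of −0.36, against −0.01 over all genes. Groups did not overlap on the lower side for 19 (61.3%), against 34.8% of all genes.

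The 2nd libraries at 6 h and at 24 h stood below their group mates. The median of the 36 genes relative to the mock mean was −0.11, −0.29 and −0.10 (log2) in the 3 libraries at 6 h and −0.35, −0.57 and −0.29 at 24 h, against 0.08, −0.01 and −0.08 in mock. Endodermis markers had their highest sums in these same libraries, at 595 CPM against 384 and 407 CPM at 6 h and at 605 CPM against 391 and 365 CPM at 24 h, with 455 to 514 CPM in mock. Root hair markers summed to 1092 CPM in replicate 2 at 6 h and to 720 and 738 CPM in its group mates, while at 24 h replicate 2 lay between the others (391, 499 and 547 CPM). Without both libraries, an alternative chosen after seeing the data, the median change at 24 h was −0.35 and 7 members were called lower in place of 8, and at 6 h the median was −0.10 and 2 were called.

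**Figure D2:**
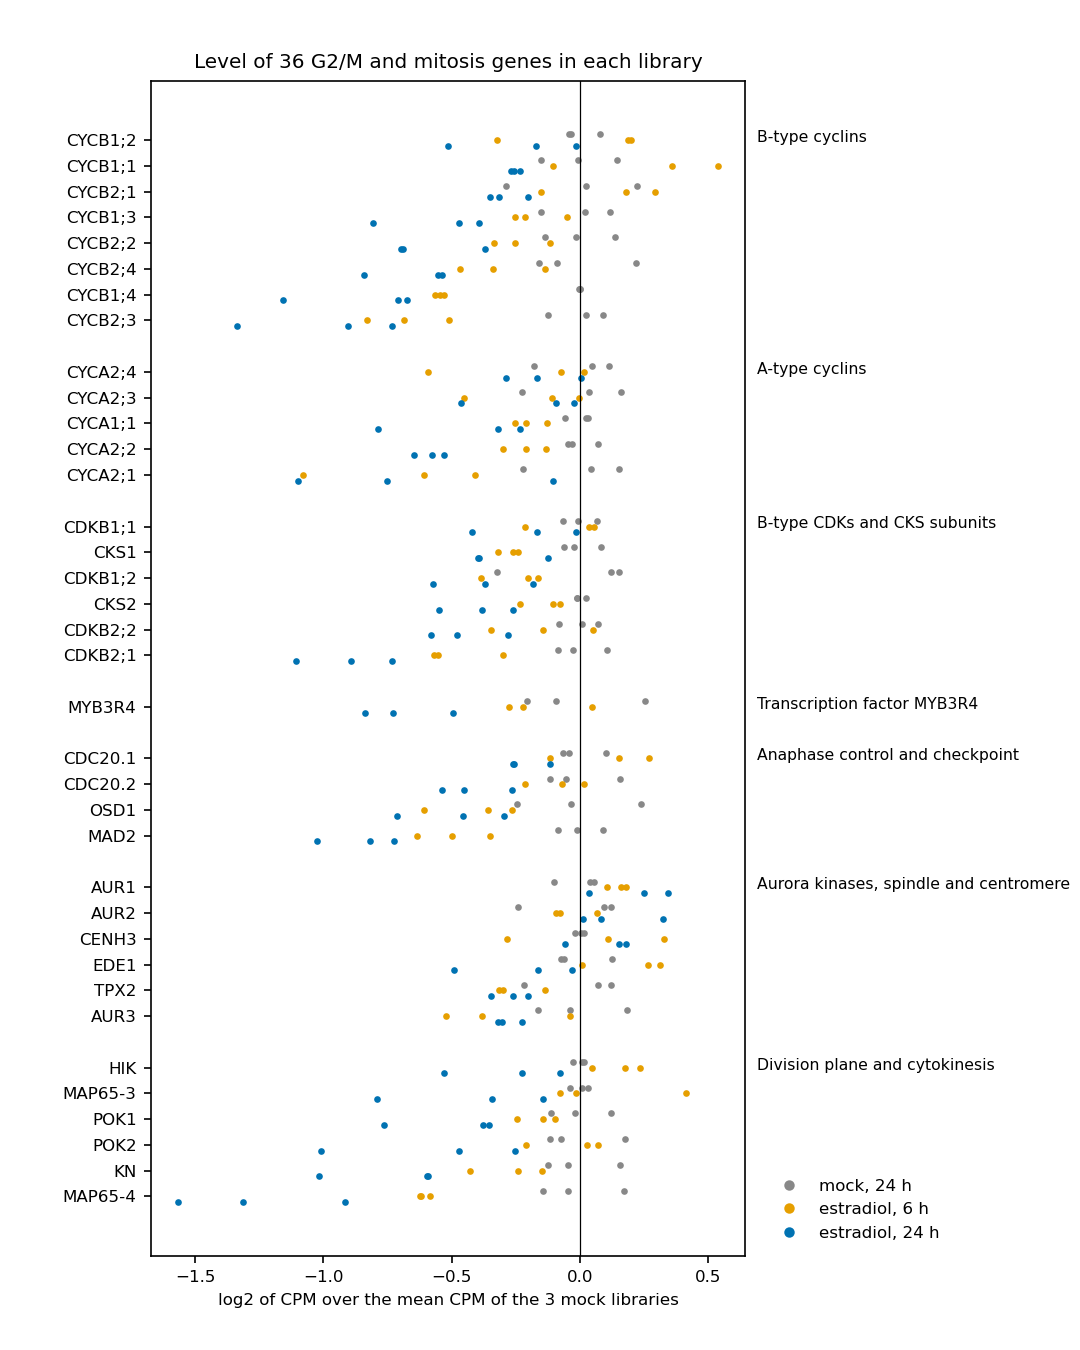
Each row is 1 of the 36 genes, grouped by role, and each point is 1 library (grey mock, orange 6 h, blue 24 h) at its log2 CPM relative to the mean of the 3 mock libraries. Blue points lie left of grey ones for 24 of 36 genes, and for AUR1, AUR2 and CENH3 they surround or exceed the mock level.

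To set the shared element beside these values, the 250 bases before each annotated gene start were read from the TAIR10.1 assembly with its RefSeq annotation, in which all 36 gene IDs were found. The core AACGG was searched on both strands (as AACGG or CCGTT). It was present upstream of 21 of 36 members (58.3%), against 21.6% of the 20210 tested protein-coding genes, and 11 of 36 (30.6%) held 2 or more copies, against 3.95%. It was found in 6 of 8 B-type cyclin genes, all 6 with 2 or more copies, and in 5 of 6 genes of the division plane and cytokinesis, 2 of them with 2 or more copies. Of the members called lower at 24 h 5 of 8 held it, and of the other members 16 of 28. Among A-type cyclins 2 of 5 held it, among genes of anaphase control and checkpoint 2 of 4, and among B-type CDKs and CKS subunits 1 of 6 (16.7%). Of 65 further mitotic genes, described below, 27 held it (41.5%), and of 16 DNA replication genes 3 (18.8%). A second search, for pairs of the triplets ACT or AGT with a spacer of 3 or 4 bases (ACTNNNACT, ACTNNNAGT, AGTNNNACT, AGTNNNAGT and the same with NNNN), which C2H2 zinc finger proteins of this family are known to bind, found a match upstream of 12 of 36 members (33.3%), against 36.8% of all genes. Matches of this kind are a description of letters and not of binding.

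The stretches below show the cores in the 6 members with the smallest p at 24 h among those that hold one, from the base 20 before the first core to 20 after the last or to the gene start. They are written 5′ to 3′ on the strand of the gene, with the core in capitals (AACGG, or CCGTT where it lies on the other strand). In MAP65-4 3 copies lie in the same direction within 91 bases of the start, and CYCB2;3 and CYCB2;2 share the order of a reverse, a forward and a reverse copy, at 114, 66 and 47 and at 172, 124 and 102 bases before the start.
MAP65-4 (chr3:22480981-22481091, minus strand): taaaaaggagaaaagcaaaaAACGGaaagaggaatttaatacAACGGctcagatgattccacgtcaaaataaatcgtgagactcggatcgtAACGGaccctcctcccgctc
MAD2 (chr3:9503023-9503055, plus strand): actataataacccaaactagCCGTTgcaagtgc
CYCB2;3 (chr1:7137851-7137962, minus strand): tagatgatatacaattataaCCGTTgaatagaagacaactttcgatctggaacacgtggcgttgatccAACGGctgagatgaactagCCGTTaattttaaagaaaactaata
KN (chr1:2711001-2711032, minus strand): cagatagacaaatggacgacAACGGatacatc
CYCB2;2 (chr4:16901404-16901518, plus strand): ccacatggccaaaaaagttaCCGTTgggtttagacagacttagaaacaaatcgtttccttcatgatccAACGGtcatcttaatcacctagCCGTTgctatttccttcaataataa
MYB3R4 (chr5:3679645-3679689, plus strand): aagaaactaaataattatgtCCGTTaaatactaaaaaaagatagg

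B-type cyclins, which bind CDKs and peak at mitosis, were the largest group (8 genes). Their summed level was 120, 109 and 107 CPM in mock, 97.0, 81.5 and 99.9 CPM at 6 h and 78.1, 62.3 and 81.2 CPM at 24 h, so the groups did not overlap at either step from mock. At 24 h all 8 had a log2 change below 0 (−0.96 to −0.21), 3 were called lower and 5 were not.

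CYCB2;3 (AT1G20610) changed most. It was at 27.5, 26.2 and 23.7 CPM in mock, 16.1, 14.5 and 18.1 CPM at 6 h, and 13.8, 10.2 and 15.5 CPM at 24 h. Mock lay above both estradiol groups, which overlapped each other. It fell by 0.67 ± 0.13 (log2, SE) at 6 h (adjusted p = 0.00228) and by 0.96 ± 0.14 at 24 h (adjusted p = 5.6e-05), and the change between 6 h and 24 h was −0.30 ± 0.14 (adjusted p = 0.0876). The call at 6 h did not survive leaving out replicate 1 or 2 of mock, or replicate 1 or 2 of the 6 h group (−0.66 to −0.58, adjusted p = 0.0105 to 0.0162). Its promoter is the one with 3 cores shown above, and 90% of its reads were unique, with the same calls on unique reads.

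CYCB1;4 (AT2G26760) had the tightest mock group, at 19.4, 19.3 and 19.4 CPM. It was at 13.3, 13.1 and 13.4 CPM at 6 h and at 11.9, 8.70 and 12.1 CPM at 24 h, 3 groups without overlap. At 6 h the change was −0.54 ± 0.11 with an adjusted p of 0.00226, under the 1.5-fold limit, and at 24 h it fell by 0.82 ± 0.11 (adjusted p = 3.76e-05). No core was found in its 250 upstream bases.

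CYCB2;4 (AT1G76310) was at 15.8, 12.7 and 12.1 CPM in mock, 10.7, 9.79 and 12.3 CPM at 6 h and 9.23, 7.55 and 9.31 CPM at 24 h. Only the 24 h group stood below mock, and it fell by 0.63 ± 0.13 (adjusted p = 0.00108). This call was lost without mock replicate 1 or 24 h replicate 2 (−0.51 and −0.54) and on log2(RPKM + 1) (−0.58), each time at the fold limit.

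The remaining B-type cyclins were not called. CYCB1;3 and CYCB2;2 had changes of −0.54 ± 0.12 and −0.57 ± 0.12 at 24 h, with adjusted p of 0.00177 and 0.00108 but less than 1.5-fold. CYCB1;1 (AT4G37490), widely used as a reporter of G2/M cells, was at 6.29, 7.01 and 5.70 CPM in mock, 8.12, 5.89 and 9.20 CPM at 6 h and 5.30, 5.25 and 5.39 CPM at 24 h. Its levels at 24 h were all below those at 6 h, with a change of −0.54 ± 0.16 (adjusted p = 0.0108), and it was not called against mock at 6 h or 24 h (adjusted p = 0.153 and 0.181). CYCB1;2 and CYCB2;1 had changes of −0.21 ± 0.15 and −0.28 ± 0.17 at 24 h, and their groups overlapped.

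A-type cyclins (5 genes), which act from S phase to mitosis, had no call in any comparison. All 5 were below 0 at 6 h (−0.68 to −0.17) and at 24 h (−0.58 to −0.14). CYCA2;2 (AT5G11300) had the smallest adjusted p: it was at 8.39, 8.30 and 9.01 CPM in mock, 7.82, 6.96 and 7.40 CPM at 6 h and 5.93, 5.74 and 5.47 CPM at 24 h. The 3 groups did not overlap. The change at 24 h was −0.584 ± 0.10 (adjusted p = 0.000245), just under the 1.5-fold limit. It was called lower in 10 of 24 alternatives, among them the fit with a replicate block (−0.59). The change between 6 h and 24 h was −0.37 ± 0.10 (adjusted p = 0.00788). CYCA2;3 and CYCA2;4, at 10.4 and 9.76 CPM in mock, had changes of −0.17 ± 0.15 and −0.14 ± 0.15 at 24 h with overlapping groups. CYCA2;1 was the gene with the lowest level of all 36, at 0.713 ± 0.0870 RPKM in mock (reads relative to exon length and library total, the deposited unit that compares genes), and its change had an SE of 0.28.

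B-type CDKs are found in plants and peak between G2 and mitosis, and the small CKS proteins dock CDKs to their substrates. The 6 genes summed to 117, 121 and 114 CPM in mock, 106, 92.6 and 98.4 CPM at 6 h and 86.2, 83.2 and 86.7 CPM at 24 h, again without overlap. CDKB2;1 (AT1G76540) was the only called gene among them. It was at 29.9, 32.8 and 28.8 CPM in mock, 24.8, 20.6 and 20.8 CPM at 6 h and 18.4, 14.2 and 16.5 CPM at 24 h, and each group lay below the one before. The change at 6 h was −0.47 ± 0.11 (adjusted p = 0.00451, under 1.5-fold), and at 24 h it fell by 0.90 ± 0.11 (adjusted p = 1.47e-05). Its close relative CDKB2;2 changed by −0.44 ± 0.12 at 24 h (adjusted p = 0.00565, under 1.5-fold). CDKB1;1 and CDKB1;2 changed by −0.19 ± 0.11 and −0.36 ± 0.15, with overlapping groups. CKS1 and CKS2, the members with the highest levels (35.6 ± 1.78 and 27.6 ± 0.236 RPKM in mock), changed by −0.30 ± 0.08 and −0.39 ± 0.09 at 24 h (adjusted p = 0.00743 and 0.00173), both under the 1.5-fold limit.

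MYB3R4 (AT5G11510), an activator of G2/M genes through the element described above, was at 18.3, 14.4 and 13.3 CPM in mock, 13.2, 12.7 and 15.9 CPM at 6 h and 9.27, 8.61 and 10.9 CPM at 24 h. Mock and 6 h overlapped, and both lay above 24 h. It fell by 0.67 ± 0.14 at 24 h (adjusted p = 0.00108), and between 6 h and 24 h it changed by −0.54 ± 0.14 (adjusted p = 0.00661, under 1.5-fold). Mock replicate 1 was the highest library: without it the change at 24 h was −0.53, under the fold limit, as it was on log2(RPKM + 1) (−0.57). The fall of MYB3R4 was not shared by MYB3R1 (AT4G32730) of the same family. MYB3R1 had means of 46.3 (mock), 55.1 (6 h) and 70.0 CPM (24 h), and each group lay above the one before. It was called higher at 24 h, by 0.60 ± 0.07 (adjusted p = 1.16e-05), just over the fold limit. MYB3R3 (AT3G09370) changed by 0.32 ± 0.10 at 24 h (not called). MYB3R5 (AT5G02320) was called higher than mock at 24 h, by 0.87 ± 0.11 (edgeR adjusted p = 2.02e-05).

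Of the 4 genes of anaphase control and checkpoint, MAD2 was called lower at 24 h. MAD2 (AT3G25980), which holds back anaphase until chromosomes are attached to the spindle, was at 21.9, 20.4 and 19.4 CPM in mock, 14.6, 13.3 and 16.2 CPM at 6 h and 11.7, 10.1 and 12.5 CPM at 24 h. The 3 groups did not overlap. It changed by −0.49 ± 0.10 at 6 h (adjusted p = 0.00278, under 1.5-fold) and fell by 0.85 ± 0.10 at 24 h (adjusted p = 1.69e-05). The APC/C activators CDC20.1 and CDC20.2 lie next to each other on chromosome 4, and 90.1% and 88.8% of their reads were unique, so reads could be split between them. They changed by −0.21 ± 0.10 and −0.41 ± 0.10 at 24 h (adjusted p = 0.0798 and 0.0038), and OSD1, an inhibitor of the same complex, by −0.47 ± 0.15 (adjusted p = 0.0146). All 4 had their 24 h libraries below the mock libraries, which held for 34.8% of all genes tested.

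The 6 genes of Aurora kinases, spindle and centromere were the only role whose summed level was not lower on average at 24 h than in mock. Their summed level was 58.7, 53.1 and 54.8 CPM in mock, 56.3, 52.3 and 54.7 CPM at 6 h and 59.1, 52.7 and 55.5 CPM at 24 h, and the 3 groups overlapped throughout. None was called in any comparison, as for the A-type cyclins. Their log2 changes at 24 h ran from −0.28 to 0.22, with 3 genes on either side of 0. TPX2 (AT1G03780), which nucleates spindle microtubules and binds Aurora kinase, had the smallest adjusted p: it was at 17.2, 16.6 and 13.5 CPM in mock, 14.3, 12.8 and 12.7 CPM at 6 h and 13.1, 12.4 and 13.7 CPM at 24 h. The groups at 24 h and mock overlapped by 1 library, with a change of −0.27 ± 0.10 (adjusted p = 0.0399). AUR1 (AT4G32830), an Aurora kinase of the spindle and the cell plate, was at 16.2, 14.5 and 16 CPM in mock, 17.6, 16.7 and 17.4 CPM at 6 h and 19.7, 15.9 and 18.5 CPM at 24 h. Its change at 24 h was 0.22 ± 0.09 (adjusted p = 0.0557). AUR2 and the centromeric histone CENH3 changed by 0.15 ± 0.12 and 0.09 ± 0.15, and CENH3 went below 0 with upper-quartile scaling. AUR3 and EDE1, a microtubule-associated protein of the spindle, changed by −0.28 ± 0.16 and −0.22 ± 0.16. The changes of TPX2, AUR3 and EDE1 were of the size seen in other roles for CYCB1;1 (−0.25 ± 0.16) and HIK (−0.26 ± 0.10). For AUR3 every 24 h library lay below every mock library. The difference between this group and the other roles was not tested. The core AACGG was found upstream of 4 of these 6 genes.

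Genes of the division plane and cytokinesis (6 genes) summed to 136, 128 and 119 CPM in mock, 124, 108 and 122 CPM at 6 h and 92.3, 67.9 and 96.8 CPM at 24 h. The mock and 6 h sums overlapped, and the 24 h sums lay below both. All 6 genes had their 24 h libraries below the mock libraries and below the 6 h libraries. Of all genes tested 34.8% lay below mock in this way and 28.9% below 6 h. MAP65-4 (AT3G60840), a microtubule bundling protein of the spindle and phragmoplast, had the largest change of the 36 at 24 h. It was at 15.2, 17.7 and 14.2 CPM in mock, 10.2, 10.5 and 10.2 CPM at 6 h and 6.32, 5.30 and 8.30 CPM at 24 h, 3 separate groups. It fell by 0.61 ± 0.14 at 6 h (adjusted p = 0.00442) and by 1.24 ± 0.14 at 24 h (adjusted p = 1.05e-05), and by 0.63 ± 0.15 between 6 h and 24 h (adjusted p = 0.00314). The call at 24 h held under all 24 alternatives. That at 6 h did not survive leaving out any single library of the 6 h group, or replicate 1 or 2 of mock (−0.63 to −0.51, adjusted p = 0.012 to 0.0384), and that between the times did not survive leaving out replicate 2 or 3 of the 6 h group, or 1 or 2 of the 24 h group (−0.63 to −0.50, adjusted p = 0.01 to 0.0142).

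KN (AT1G08560), the syntaxin KNOLLE that fuses vesicles into the cell plate, was at 33.4, 29.0 and 27.5 CPM in mock, 25.4, 22.2 and 27.0 CPM at 6 h and 19.8, 14.8 and 19.9 CPM at 24 h. The groups did not overlap. It changed by −0.27 ± 0.12 at 6 h (adjusted p = 0.0984) and fell by 0.72 ± 0.12 at 24 h (adjusted p = 0.00024). HIK, the phragmoplast kinesin HINKEL, MAP65-3, which bundles microtubules at the phragmoplast midline, and the kinesin POK2, which marks the division plane, were not called at 6 h (0.16 ± 0.10, 0.12 ± 0.16 and −0.03 ± 0.15). From 6 h to 24 h they changed by −0.42 ± 0.10, −0.52 ± 0.16 and −0.51 ± 0.16 (adjusted p = 0.00486, 0.0151 and 0.0157), each under 1.5-fold. POK1 and POK2 changed by −0.48 ± 0.11 and −0.54 ± 0.16 from mock to 24 h, with adjusted p of 0.00236 and 0.00946 and less than 1.5-fold.

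**Figure D3:**
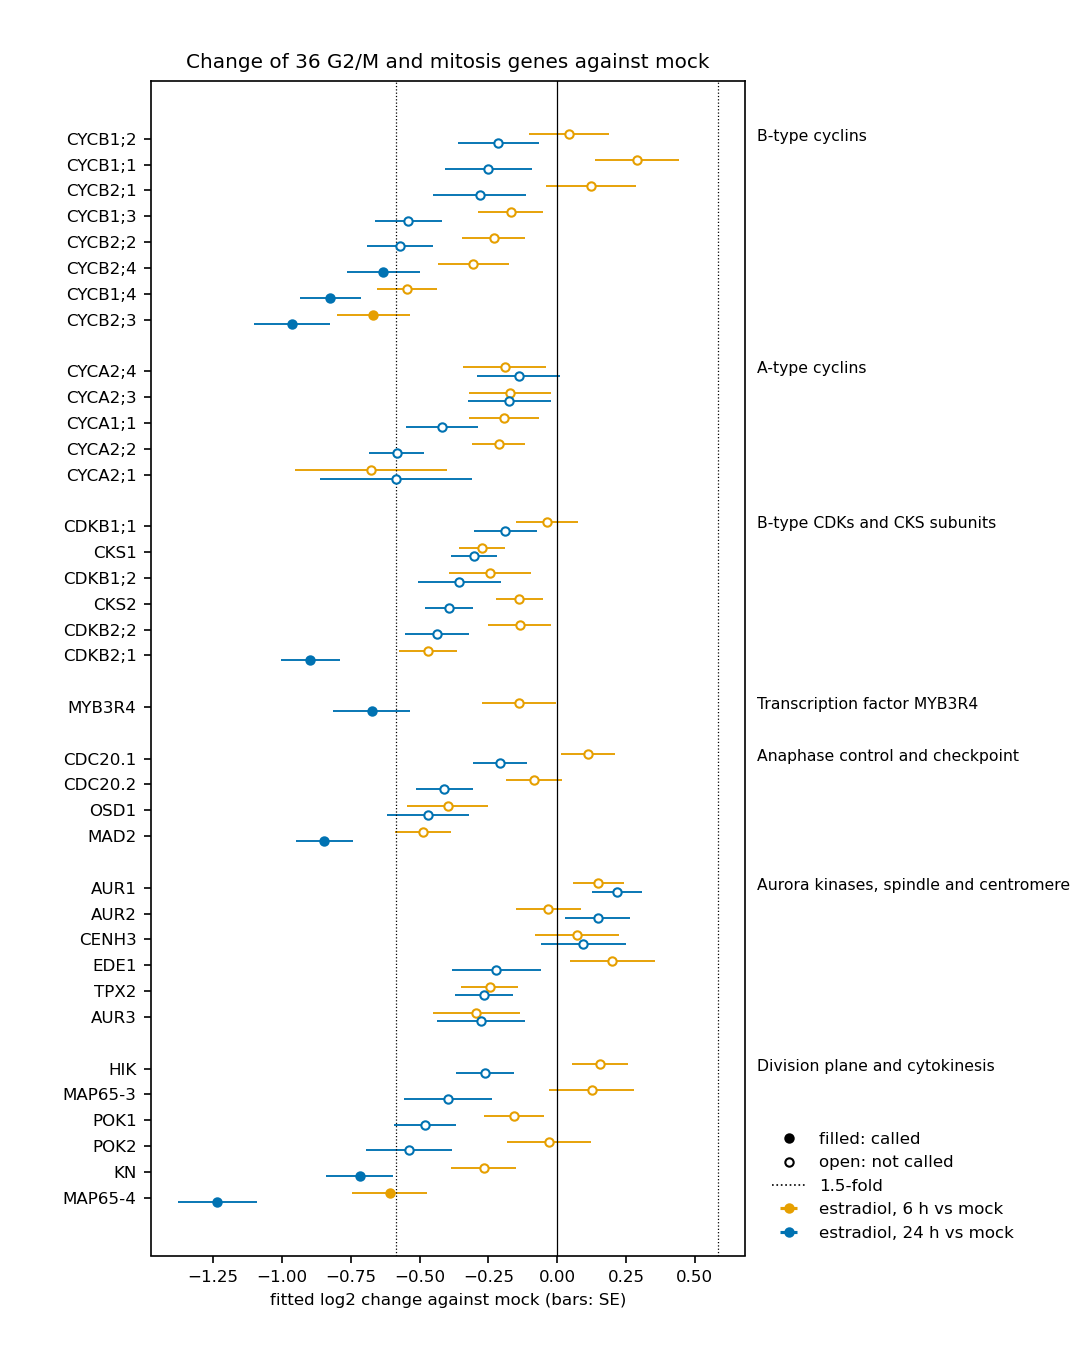
Points give the fitted log2 change from mock of each of the 36 genes at 6 h (orange) and 24 h (blue) with SE bars, grouped by role, filled where the gene was called, with dotted lines at 1.5-fold. The 8 filled blue points lie between −1.24 and −0.63, and the Aurora, spindle and centromere genes lie on both sides of 0.

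Ratios of related genes within 1 library do not depend on scaling. On RPKM, CDKB2;1 was 2.30 ± 0.260 times the level of CDKB1;1 in mock (SD, n = 3), 1.70 ± 0.157 at 6 h and 1.41 ± 0.153 at 24 h. CYCB2;3 to CYCB2;1 went from 5.55 ± 0.572 to 3.19 ± 0.210 and 3.40 ± 0.557, and CYCB1;4 to CYCB1;1 from 2.75 ± 0.289 to 1.59 ± 0.358 and 1.83 ± 0.304. MAP65-4 to MAP65-3 went from 1.53 ± 0.139 to 0.942 ± 0.172 and 0.858 ± 0.0654, and KN to HIK from 3.44 ± 0.306 to 2.57 ± 0.157 and 2.51 ± 0.142. In these 5 pairs every estradiol library lay below every mock library, that is, the first gene was lower relative to the second. POK2 to POK1 was 1.16 ± 0.0448, 1.27 ± 0.0667 and 1.11 ± 0.146, with the mock and 24 h groups overlapping. AUR1 to AUR3 was 3.12 ± 0.390 in mock, 4.29 ± 0.653 at 6 h and 4.36 ± 0.350 at 24 h, and CDC20.2 to CDC20.1 was 0.820 ± 0.0315, 0.720 ± 0.0415 and 0.712 ± 0.0333. The 8 pairs were chosen with the fold changes known, and with 3 libraries against 3 an exact two-sided permutation test cannot go below p = 0.1, its value wherever groups did not overlap.

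Other genes of mitosis were called in both directions at 24 h. A list of 65 further genes (other cyclins and MYB3R genes, APC/C subunits, kinetochore, condensin, kinesin and cell plate genes) had no call at 6 h by edgeR, DESeq2 or limma-voom, with 20 at an unadjusted p under 0.05, and 17 at 24 h (26.2%, against 35.5% of all genes), of which 8 were higher and 9 lower (13.8%, against 18% of all genes). The median log2 change of the list was 0.01 at 6 h and −0.16 at 24 h. Among those lower at 24 h were PATL1 (AT1G72150), a cell plate lipid-binding protein (−1.32 ± 0.13), CDKA;1 (AT3G48750), the main CDK of the cell cycle (−0.76 ± 0.07), and the kinesin ATK5 (AT4G05190) (−1.05 ± 0.13). MAP65-1 (AT5G55230) fell by 0.70 ± 0.09. Among those higher were NPSN11 (AT2G35190), a SNARE of the cell plate (0.86 ± 0.07), and the kinetochore gene NUF2 (AT1G61000) (0.97 ± 0.09). MAD1 (AT5G49880) and TES (AT3G43210) were higher as well (0.71 ± 0.07 and 0.71 ± 0.08). NPSN11, NUF2, CDKA;1, MAD1, PATL1 and TES had the 6 smallest p of the 17. From 6 h to 24 h 7 were called (10.8%, against 24.6% of all genes), 3 higher and 4 lower, among them the repressor MYB3R5 (AT5G02320), higher by 0.71 ± 0.11, and ATK5 and PATL1, lower by 0.67 ± 0.14 and 0.83 ± 0.13.

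**Figure D4:**
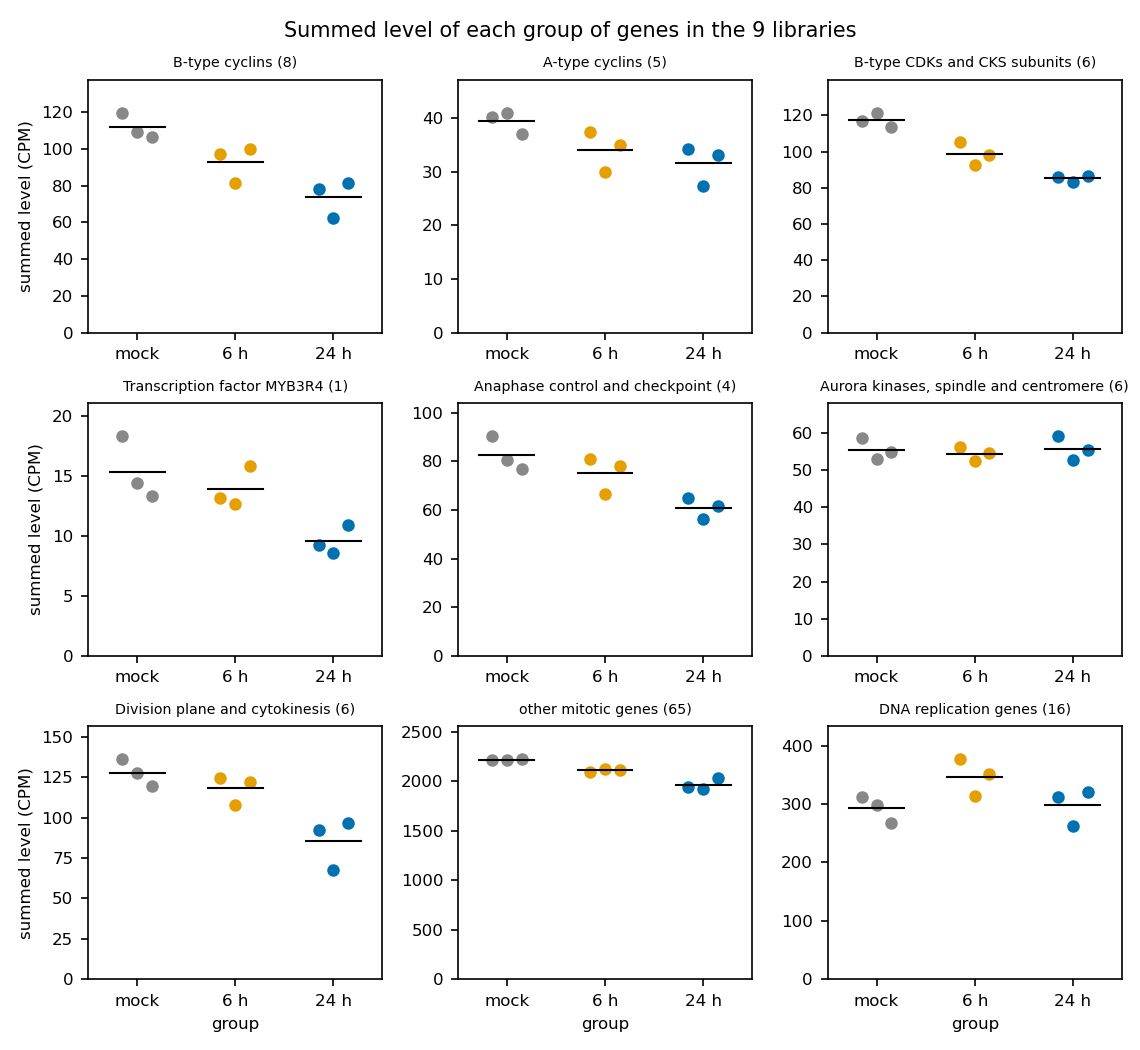
Each panel shows the summed CPM (y axis from 0) of 1 group of genes in the 9 libraries, 1 point a library, with a line at the group mean and the number of genes in brackets. Sums of B-type cyclins, B-type CDKs and cytokinesis genes were lower at 24 h than in mock, while the Aurora, spindle and centromere sum stayed at 52.3 to 59.1 CPM.

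Genes of DNA replication, the preceding stage of the cell cycle, had no member called lower than mock at either time. Of all genes 7.71% were called lower at 6 h and 18% at 24 h, and 13.1% and 35.5% either way. Of 16 genes (the MCM2 to MCM7 helicase, PCNA, CDT1A, CDC6, ribonucleotide reductase, E2F factors and others) 16 had a log2 change above 0 at 6 h, with a median of 0.25, and 8 of 16 at 24 h, with a median of −0.01. Only E2FA (AT2G36010) was called at 6 h (0.59 ± 0.12, adjusted p = 0.00254) and only E2FB (AT5G22220) at 24 h (0.89 ± 0.10, adjusted p = 1.03e-05), both higher, and the call of E2FA did not survive leaving out replicate 2 or 3 of mock, or 1 or 3 of the 6 h group. From 6 h to 24 h 14 of the 16 were below 0, with a median of −0.23, where the median of the G2/M genes was −0.31. None of the 16 was called between the times by edgeR, against 24.6% of all genes, with 6 at an unadjusted p under 0.05.

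Set against these genes in the same library, the G2/M genes separated by treatment. The mean log2 RPKM of the 36 genes minus that of the 16 replication genes was 0.05, 0.04 and 0.13 in mock, −0.37, −0.39 and −0.35 at 6 h, and −0.46, −0.42 and −0.48 at 24 h. The 3 groups did not overlap, and replicate 2 of each estradiol group lay with its group mates on this measure. The step to 6 h held both the median change of −0.17 in the G2/M genes and that of 0.25 in the replication genes. Without the 5 genes named by the study the means were −0.04 ± 0.05 in mock, −0.42 ± 0.03 at 6 h and −0.48 ± 0.04 at 24 h (SD, n = 3). Against all 10 listed root meristem markers, RGF1 included, the difference was 1.20 ± 0.116 in mock, 0.741 ± 0.136 at 6 h and 0.455 ± 0.113 at 24 h. The median change of the 9 tested markers was 0.05 at 6 h and 0.14 at 24 h, and without SCR, WOX5 and RGF1 the difference was 0.807 ± 0.0641, 0.604 ± 0.0659 and 0.367 ± 0.234, with the 6 h and 24 h libraries overlapping. Against the other mitotic genes it was −0.03 ± 0.02, −0.23 ± 0.06 and −0.39 ± 0.05. These are descriptions of lists with no test.

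**Figure D5:**
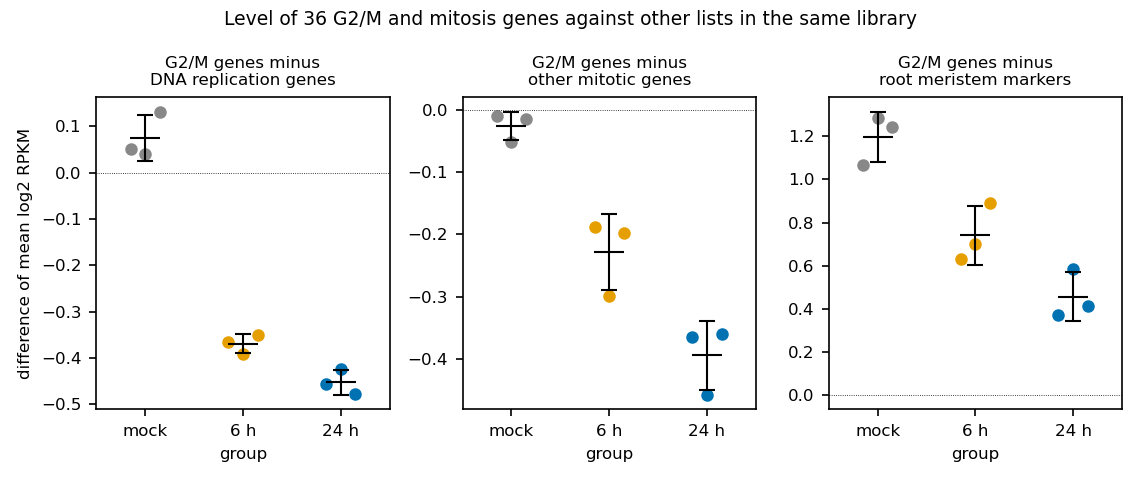
Each panel shows, for every library (points), the mean log2 RPKM of the 36 G2/M genes minus that of another list, with the group mean and SD in black. Against DNA replication genes the mock libraries lie at 0.04 to 0.13 and all 6 estradiol libraries between −0.48 and −0.35.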

How the data were processed

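RNA was sequenced as stranded, poly(A)-selected libraries from 9 root samples. Per the study's methods, reads were trimmed and mapped to TAIR10 with CLC Genomics Workbench, and the authors deposited counts of total and unique exon reads per gene. The deposited RPKM values are reads relative to exon length and to all mapped reads, and the deposited TPM values were not used. Whether counting used strand is not stated in those sources. The sources differ on the portion of the root taken. No intron reads were analysed here.

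Total counts of all 9 libraries entered 1 fit in edgeR 4.0.16 (R 4.3.3; TMM, filterByExpr, glmQLFit and glmQLFTest), and called genes met the study's thresholds (adjusted p under 0.01 and 1.5-fold). SEs were obtained by dividing the size of the log2 change by the root of the F statistic. The steps were tested on simulated data. Separate sowings are not stated, so p-values reflect only how these samples varied, in part perhaps technically, and reads carry no molecular identifiers. Each called member, and in role groups with none the one with the smallest adjusted p, is given in every library, as are AUR1 and CYCB1;1, which were added after their values were seen. Of the other mitotic and the replication genes, up to 6 called ones per comparison by smallest p could be named. MAP65-1, MYB3R1 and MYB3R3 are named outside this rule. The members and lists were chosen with earlier results of these data known.

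Samples carry replicate numbers. Deviations from group means of same-numbered libraries correlated at 0.15 to 0.34 between 6 h and 24 h and at −0.05 to 0.15 with mock, and no block was used. Alternatives were other scalings, filters and tools (DESeq2 1.42.0, limma 3.58.1), unique reads, fits of 2 groups, log2 RPKM, a looser threshold, a replicate block and each library left out. Promoter bases come from the TAIR10.1 assembly. The files give no coordinates.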

Additional observations from a re-analysis of the deposited data

Results flagged for a closer look

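MAP65-4 is given because its 2 changes from mock, at 6 h and at 24 h, differed from each other by the test of 24 h against 6 h (−0.63 on the log2 scale, edgeR adjusted p = 0.00314). It was the only one of 36 members to pass both the adjusted p and the 1.5-fold limit in that test. In all, 6 members had an adjusted p under 0.01, and 5 of them changed by less than 1.5-fold. For MAP65-4 all 3 libraries at 24 h lay below all 3 at 6 h. The call was lost in 8 of 24 alternatives, and the change stayed between −0.82 and −0.48 in all of them.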

How the results depend on the processing

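The median changes of the members kept their sign and moved by less than the spread between replicates in every setting run. Counts of called members moved more. At 6 h (2 in the report) 1 was called in each of the fits on log2(RPKM + 1), on log2(RPKM + 0.1) and with at least 0.5 RPKM in 3 libraries, 6 at the looser threshold (an adjusted p under 0.05 at any fold), and 0 to 2 with 1 library left out. At 24 h (8) 6 were called lower on log2(RPKM + 1) (16.7%, against 16.4% of all genes) and 11 with total counts alone (30.6%, against 20.5%). In that comparison 13 were called with upper-quartile factors, 22 at the looser threshold and 7 to 10 with 1 library left out. From 6 h to 24 h (1) 4 were called with upper-quartile factors, 0 with only the 2 groups, 0 on log2(RPKM + 1) with or without the RPKM minimum, 18 at the looser threshold and 0 to 4 with 1 library left out. Of the other mitotic genes 14, 45 and 30 were called at the looser threshold (0, 17 and 7 in the report, in the order 6 h, 24 h and between the times), and between the times 2 on log2(RPKM + 1) with or without the minimum, 4 on log2(RPKM + 0.1) and 4 (without 24 h replicate 2) to 14 (without 24 h replicate 3) with 1 library left out. Of the DNA replication genes 5, 5 and 4 were called at the looser threshold. At 6 h (1) none (0) was called with total counts alone, upper-quartile factors, the stricter filter, only 2 groups or any RPKM fit, and 0 to 1 with 1 library left out. Between the times (0) 1 was called with upper-quartile factors, 1 without both second estradiol libraries, and 0 to 1 with 1 library left out. With a replicate block 9 members were called at 24 h, CYCA2;2 being the added one, and the counts at 6 h (2) and between the times (1) were as in the report. The cause of these moves was not tested. Fits on intron reads were planned and not run, because the gene counts at hand hold exon reads only. Members with few reads limit the precision: the lowest, CYCA2;1, had 15 to 50 reads a library.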
